A study of Mus musculus with 4 samples.

Results

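The genes described here are the variable (V) segments of the mouse T cell receptor, taken as every gene of biotype TR_V_gene in GENCODE M21 and matched to the count tables by Ensembl identifier. They number 144 of the 50686 genes counted, with 110 in the alpha locus, 22 in the beta locus, 7 in the gamma locus and 5 in the delta locus. Of the gamma entries 6 carry the symbol form Tcrg-V, and 2 alpha entries, B230359F08Rik and C920008G01Rik, carry clone names and were placed by their position among the Trav genes. The WT and Yap KO cells, obtained from mouse spleen and lymph node, were in culture when their RNA was extracted for bulk sequencing. Each genotype gave 1 unstimulated and 1 stimulated library, 4 in all, so no group had a replicate. A number, 24, stands without a unit in the titles of stimulated samples and is missing from the others. The stimulus, the cell type, the age and number of mice, the deleted exons, the driver of the deletion and any receptor transgene are details not given in the sources used here. Values below stand in a fixed order, unstimulated before stimulated and WT before Yap KO within each state, unless named otherwise.

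A T cell receptor is a pair of chains, either alpha with beta or gamma with delta. Each chain's gene is assembled in the developing cell by joining a V segment to a J segment, with a D segment between them in beta and delta, and the joined exon is spliced to a constant (C) segment. A mature T cell expresses 1 productive beta chain as a rule, so the mixture of V segments in the RNA of a population reflects which receptors its cells carry. Several V segments mark known receptors. The Trav11 segment with Traj18 marks the invariant chain of NKT cells, Trav1 that of mucosal-associated invariant T cells, and the common OT-I receptor transgene joins a segment of the Trav14 family (Vα2) to a Trbv12 segment (Vβ5).

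Reads in genes numbered 22088392, 25419974, 20976343 and 19935523. Yap1, the gene named by the genotype, had 1, 0, 3 and 2 reads, too few to check the labels. The RNA held T cell transcripts. The coreceptor gene Cd8a stood at 852.3, 800.2, 264.0 and 243.7 CPM (reads per 1000000 reads in genes), and Cd4 had 0 to 3 reads in any library. B cell transcripts were also present: the 218 immunoglobulin V genes summed to 94.5, 100.4, 5.96 and 5.67 CPM. In bulk RNA, fewer cells of a type and less RNA per cell cannot be told apart.

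The alpha locus has been copied in part within the mouse genome, and many V segments differ by few bases or none. The count tables list reads aligned to more than 1 place in a summary entry apart from the genes, so segments with near-identical copies may lose reads, although some identical copies had reads (below). Of the 110 alpha segments, 86 share at least 50% of their 31-base words with another gene's transcript, against 2 of 22 beta, 0 of 7 gamma and 2 of 5 delta segments. In all, 39 of the 144 segments are shared over their whole length, and 23 of those 39 had no read in any library.

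The sequences below are V exons of the reference transcripts (GENCODE M21, GRCm38), printed 5′ to 3′. The first pair is shown because 1 of them carried nearly all beta reads. Both V exons are on the plus strand of chromosome 6, Trbv12-1 (Vβ5.2 in the older naming) at chr6:41113775-41114067 and Trbv12-2 (Vβ5.1) at chr6:41119072-41119364. Capitals mark the 32 of 293 bases at which they differ.
Trbv12-1: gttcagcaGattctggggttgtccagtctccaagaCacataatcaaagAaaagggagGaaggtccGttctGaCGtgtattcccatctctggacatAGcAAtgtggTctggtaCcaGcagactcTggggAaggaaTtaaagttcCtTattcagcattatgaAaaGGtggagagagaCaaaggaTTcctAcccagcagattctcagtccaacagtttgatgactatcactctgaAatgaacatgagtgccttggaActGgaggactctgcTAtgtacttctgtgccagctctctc
Trbv12-2: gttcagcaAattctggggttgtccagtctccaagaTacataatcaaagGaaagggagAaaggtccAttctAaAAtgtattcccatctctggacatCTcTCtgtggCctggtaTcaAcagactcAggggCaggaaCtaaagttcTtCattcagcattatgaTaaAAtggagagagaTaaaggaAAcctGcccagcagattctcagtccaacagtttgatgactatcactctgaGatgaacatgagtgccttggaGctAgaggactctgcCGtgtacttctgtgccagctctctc
Their identity is 89.1%, and the differing bases are spread along the exon, so that only 3.9% of the 31-base words of Trbv12-1 occur in another gene.

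Next are the last 100 bases of the V exon of 4 members of the Trav14 family, the alpha family with the most unstimulated reads. They lie on the plus strand of chromosome 14, at chr14:53554247-53554558 for Trav14-1, chr14:53763386-53763694 for Trav14-3, chr14:52855855-52856166 for Trav14d-1 and chr14:53166867-53167178 for Trav14n-1, where the positions are those of the whole V exon. Capitals mark bases that differ between Trav14-1 and Trav14-3.
Trav14-1: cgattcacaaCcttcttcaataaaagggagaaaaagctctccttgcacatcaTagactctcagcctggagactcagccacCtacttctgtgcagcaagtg
Trav14-3: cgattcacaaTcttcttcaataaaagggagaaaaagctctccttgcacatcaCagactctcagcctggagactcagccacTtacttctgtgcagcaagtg
Trav14d-1: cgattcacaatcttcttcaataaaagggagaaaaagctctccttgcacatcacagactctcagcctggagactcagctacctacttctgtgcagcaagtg
Trav14n-1: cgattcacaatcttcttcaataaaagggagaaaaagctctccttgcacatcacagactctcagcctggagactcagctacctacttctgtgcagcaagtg
Trav14-1 and Trav14-3 have 92.6% identity over the V exon. Trav14d-1 and Trav14n-1 are identical over all 312 bases, so a read within that exon aligns to both. They were nevertheless counted at 53, 72, 13 and 10 reads and at 54, 72, 13 and 10 reads. Among 15 such pairs of segments, identical in all 31-base words, 7 had reads and 4 of those 7 had equal counts in every library. Each segment of those 4 pairs had at most 2 reads in any library. The way these reads were assigned is not given in the sources used here.

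Members of the Trav15 family are also used by the delta chain, and 2 of them with unlike changes between the states are shown by the last 100 bases of the V exon, with differing bases in capitals. Both are on the plus strand of chromosome 14, at chr14:53559945-53560247 and chr14:53649695-53649994.
Trav15-1-dv6-1: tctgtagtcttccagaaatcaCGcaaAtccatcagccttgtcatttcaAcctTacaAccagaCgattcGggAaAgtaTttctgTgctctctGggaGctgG
Trav15-2-dv6-2: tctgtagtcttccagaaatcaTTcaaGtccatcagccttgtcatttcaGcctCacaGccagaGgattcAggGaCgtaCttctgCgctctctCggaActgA
Identity over these V exons is 77.9%.

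Among delta and gamma segments, the leading member of each locus is shown with its nearest relative, again by the last 100 bases of the V exon and with differing bases in capitals. Trdv2-2 (chr14:53961304-53961602) and Trdv2-1 (chr14:53946362-53946660) are on the plus strand of chromosome 14. Trgv2 (chr13:19336573-19336879, minus strand) and Tcrg-V1 (chr13:19340151-19340454, plus strand) are on chromosome 13.
Trdv2-2: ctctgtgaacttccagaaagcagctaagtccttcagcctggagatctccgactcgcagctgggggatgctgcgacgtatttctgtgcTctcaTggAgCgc
Trdv2-1: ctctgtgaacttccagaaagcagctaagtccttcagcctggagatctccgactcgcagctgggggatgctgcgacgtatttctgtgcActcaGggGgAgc
Trgv2: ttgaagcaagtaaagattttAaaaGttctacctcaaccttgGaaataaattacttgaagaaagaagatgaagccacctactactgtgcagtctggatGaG
Tcrg-V1: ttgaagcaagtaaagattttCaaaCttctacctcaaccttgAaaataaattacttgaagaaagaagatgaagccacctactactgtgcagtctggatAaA
The delta pair differ at 7 of 299 bases (97.7% identity), and 4 of the 7 differences fall in the final bases that border the junction with D or J. The gamma pair have 95.1% identity.

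The total level of V segments was compared first. V segments of the 4 loci together had 20144, 21797, 6347 and 5561 reads, which is 912.0, 857.5, 302.6 and 278.9 CPM. Their exact 95% Poisson intervals, which cover counting error only, were 899.4 to 924.7, 846.1 to 868.9, 295.2 to 310.1 and 271.7 to 286.4. The V total was 3.01-fold lower in stimulated than in unstimulated WT cells and 3.07-fold lower in Yap KO cells, while the 2 genotypes differed by ratios (Yap KO over WT) of 0.94 and 0.922. Both stimulated libraries were below both unstimulated ones.

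**Figure D1:**
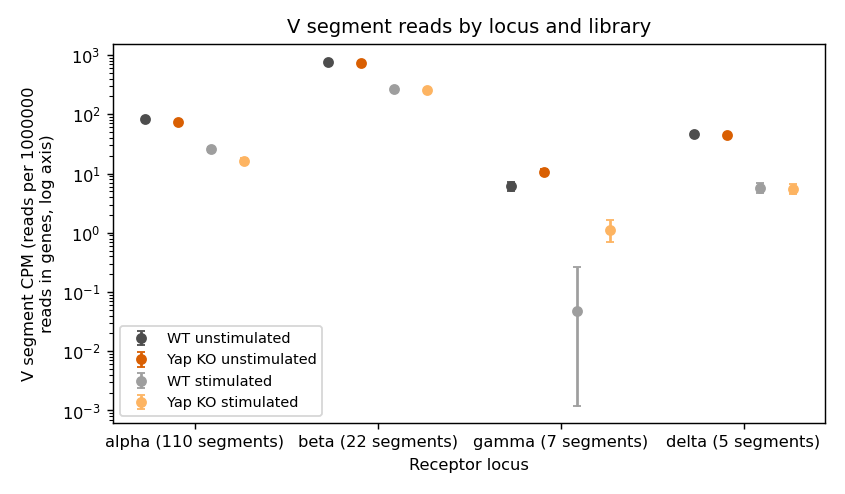
V segment reads as CPM (log axis) for the 4 receptor loci in each library, with exact 95% Poisson intervals of the counts. In every locus both stimulated libraries lie below both unstimulated ones, and the gamma locus of WT stimulated cells rests on 1 read.

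The ratios were not of the same size in the 4 loci. Beta V reads, 776.2, 728.6, 271.3 and 256.1 CPM, were 2.86-fold lower with stimulation in WT and 2.84-fold lower in Yap KO. Alpha V reads, 82.4, 74.0, 25.6 and 16.3 CPM, were 3.22-fold and 4.54-fold lower. Delta V reads, 47.4, 44.3, 5.67 and 5.47 CPM, were 8.36-fold and 8.1-fold lower, and gamma V reads stood at 6.07, 10.6, 0.0477 and 1.1 CPM, the last 2 values resting on 1 and 22 reads. Beta segments made up 85.1, 85.0, 89.7 and 91.8% of all V reads.

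Single segments were tested in an additive model of genotype and state over all genes (edgeR quasi-likelihood test, Benjamini-Hochberg adjustment at 0.05). Of 144 segments, 31 had no read in any library, 77 had reads but did not pass the filter on low counts, and 36 were tested. With stimulation 30 of the 36 were called lower and 0 higher, at a background of 34.1% of all 15394 tested genes called lower and 33.3% called higher. The 30 were 19 of 25 alpha, 3 of 3 beta, 3 of 3 gamma and 5 of 5 delta segments; DESeq2 called 20, all lower, and 0 higher, and edgeR gave 0 higher even at an unadjusted p of 0.05. Of the 36, 20 had 10 or more reads in both unstimulated libraries and not in both stimulated ones, so for these the filter itself favoured a fall, and the count is a description. Over all 144 members, CPM were lower with stimulation in both genotypes for 63, higher in both for 2 (Trav2 and Trav13n-3, neither of which passed the filter) and mixed or equal in a genotype for 48. The median log2 ratio of the 36 was -2.31, also with 3 members without stimulated reads placed at their bound, beside -0.05 for all tested genes.

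Between genotypes, 0 of the 36 were called in either direction, at a background of 0.838% of tested genes called higher and 0.559% called lower in Yap KO. DESeq2 also called 0. An unadjusted p under 0.05 was reached by 3 of the 36 in edgeR and by 1 in DESeq2. In edgeR it was reached by 1789 of all 15394 tested genes. The fit has 1 residual degree of freedom, and with 1 library per group the genotype and the source of the cells cannot be told apart.

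The beta locus was dominated by a single segment. Trbv12-1 (ENSMUSG00000095574, chromosome 6, 41113550 to 41114067, GRCm38), whose sequence is given above, had 17033, 18246, 5659 and 5081 reads. That was 99.4, 98.5, 99.4 and 99.5% of the beta V reads, with exact 95% binomial (Clopper-Pearson) intervals of 99.2 to 99.5, 98.3 to 98.7, 99.2 to 99.6 and 99.3 to 99.7%. The share was thus high in each of the 4 libraries and lowest in Yap KO unstimulated cells. The effective number of beta V segments, the inverse of the summed squared shares, which is 1 when a single segment holds every read, was 1.01, 1.03, 1.01 and 1.01.

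As CPM per kilobase of exon (RPKM), Trbv12-1 stood at 1982.3, 1845.2, 693.5 and 655.2 and ranked 9, 11, 36 and 42 among the 15394 tested genes. The ranked genes include D and J segments of few bases, for which division by length gives high values. Trbd1, with 12 bases, stood at 2497.5, 1750.6, 1283.2 and 907.1 RPKM. Trbc2, 1 of the 2 beta constant genes, stood at 2327.7, 2176.5, 1066.5 and 1025.5 RPKM. Trbc1, the other, stood at 827.9, 654.1, 660.5 and 531.0 RPKM. Trbv12-1 fell with stimulation by 1.42 on the log2 scale (SE 0.12, edgeR adjusted p = 8.58e-06) and differed by -0.08 (SE 0.12, adjusted p = 0.875) between genotypes.

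The other 21 beta segments together had 111, 274, 32 and 24 reads, or 0.647, 1.48, 0.562 and 0.47% of the beta total, with 95% intervals of 0.533 to 0.779, 1.31 to 1.66, 0.385 to 0.793 and 0.301 to 0.699%. The share in Yap KO unstimulated cells lay above the intervals of the other 3 libraries. Trbv3 made up 56.9% of these reads there. It had 0, 156, 1 and 0 reads, 0.842% of beta V reads in Yap KO unstimulated cells and at least 48.1-fold above WT unstimulated, with a count of 0 taken as 3 reads per library. A count of 0 allows a share of up to 0.0175% in WT unstimulated and up to 0.0588% in Yap KO stimulated cells. Trbv3 shares no 31-base word with another gene and has 55.0% identity to Trbv12-1 over the aligned V exon.

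Trbv13-1 was likewise read only in Yap KO unstimulated cells (0, 19, 0 and 0 reads), whereas Trbv1 had 18, 0, 4 and 1. Trbv13-2 (Vβ8.2), the segment most used by mouse NKT cells, had 33, 33, 8 and 4 reads and a log2 stimulation ratio of -2.16 (SE 0.59, edgeR adjusted p = 0.00932; DESeq2 adjusted p = 0.128). Trbv12-2, the relative of Trbv12-1 printed above, had 22, 38, 9 and 8 reads and a log2 ratio of -1.48 (SE 0.55, edgeR adjusted p = 0.0389, DESeq2 adjusted p = 0.33). Both Trbv13-2 and Trbv12-2 had fewer than 10 reads in each stimulated library, so the filter on low counts favoured a fall for them. Trbv31, the only mouse beta V segment that lies downstream of the constant genes, had 11, 7, 6 and 9 reads, and Trbv2 had 1, 6, 0 and 2.

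Further segments fixed as markers of known receptors were near or at 0. Trbv13-3 had 3, 0, 0 and 0 reads, Trbv14 1, 0, 0 and 0, Trbv19 2, 0, 0 and 0, and Trbv29 1, 3, 0 and 0. Without Trbv12-1, the share distance between genotypes, meaning the percentage points of reads that would have to move to another segment, was 67.2 in unstimulated and 32.3 in stimulated cells, on 111 and 274 and on 32 and 24 reads. With Trbv12-1 it was 1.09 and 0.202.

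**Figure D2:**
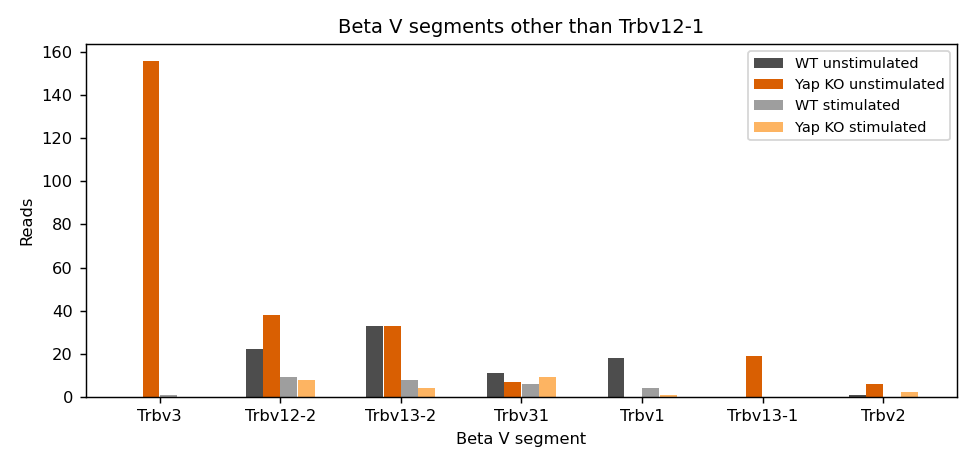
Reads of the 7 most used beta V segments after Trbv12-1, 1 bar per library. Trbv3 has 156 reads in Yap KO unstimulated cells and at most 1 in any other library, while Trbv12-2 and Trbv13-2 are read in all 4.

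Alpha segments were used far more evenly. Reads fell on 58, 75, 49 and 41 of the 110 segments, and the effective number was 19.4, 18.5, 15.0 and 17.4. The most used were Trav14-1 in both unstimulated libraries (10.4 and 11.4% of alpha V reads), Trav15-1-dv6-1 in WT stimulated cells (14.7%) and Trav21-dv12 in Yap KO stimulated cells (12.9%). Alpha V reads were few, 1820, 1880, 536 and 325, and their ratio to constant region reads was 15.4, 13.8, 9.28 and 6.59 per 100 Trac reads, against 34.8, 36.5, 22.0 and 23.1 beta V reads per 100 reads of Trbc1 and Trbc2. The part of shared sequence in the alpha ratios was not tested.

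Trav21-dv12, which shares no 31-base word with another gene and can serve alpha and delta chains, had 187, 175, 55 and 42 reads. Its share, 10.3, 9.31, 10.3 and 12.9%, had overlapping intervals in the 4 libraries, the widest from 9.47 to 17.1%. It fell in level by 1.61 on the log2 scale with stimulation (SE 0.28, edgeR adjusted p = 0.000705). Trav17, also without shared words, had 96, 73, 37 and 13 reads and a share of 5.27, 3.88, 6.9 and 4.0%. Trav19 had 114, 70, 16 and 12 reads and a share of 6.26, 3.72, 2.99 and 3.69%.

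Within the Trav14 family (Vα2), 8 of 9 segments had reads and the family held 26.5, 27.8, 17.2 and 15.4% of alpha V reads. Both stimulated shares were lower than both unstimulated ones. Trav14-1 had 190, 215, 48 and 9 reads, with a share of 10.4, 11.4, 8.96 and 2.77%. The low value is that of Yap KO stimulated cells, whose interval, 1.27 to 5.19%, does not reach the 6.68 to 11.7% of WT stimulated cells. Trav14-3 had 91, 72, 15 and 12 reads, Trav14-2 had 62, 43, 3 and 7, and Trav14d-3-dv8 had 22, 42, 0 and 0.

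Shares were described by a rule of size, and no test was run on them. It asked for a share that differed 2-fold or more and in like direction in each of both library pairs, with an exact conditional 95% interval without 1 in each and at least 20 reads over all libraries, a minimum that 46 of the 144 segments met. Between states, 2 segments had a higher share in stimulated cells, Trav15-2-dv6-2 and Trdv1, and 2 a lower one, Trav16 and Trav14d-3-dv8. Between genotypes 0 segments passed. When segments that share at least 50% of their 31-base words were left out of the locus totals, 0 segments passed between states, Trdv1 included, since Trdv2-2 was then among those left out of the delta total.

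Trav15-2-dv6-2 had 33, 73, 39 and 34 reads, or 1.81, 3.88, 7.28 and 10.5% of alpha V reads. Its share was 4.01-fold (95% interval 2.46 to 6.58) higher in stimulated WT cells and 2.69-fold (1.74 to 4.1) higher in stimulated Yap KO cells. In level it did not pass the edgeR test, with a log2 stimulation ratio of -0.19 (SE 0.40, adjusted p = 0.696), while 19 of the 25 tested alpha segments were called lower. Trav15-1-dv6-1 had 132, 161, 79 and 32 reads, 7.25, 8.56, 14.7 and 9.85%, with share ratios of 2.03 in WT and 1.15 in Yap KO. The Trav15 family as a whole held 9.07, 13.2, 22.0 and 20.3%.

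Trav16 moved the other way, with 138, 177, 17 and 11 reads and a share of 7.58, 9.41, 3.17 and 3.38%. Its stimulated share was 0.418 (0.237 to 0.694) of the unstimulated one in WT and 0.359 (0.176 to 0.659) in Yap KO, and its level fell by 3.18 on the log2 scale (SE 0.37, edgeR adjusted p = 6.33e-05). Trav14d-3-dv8 had no stimulated read, so it met the read minimum on unstimulated reads alone. Its share ratio was at most 0.463 in WT and 0.413 in Yap KO. Of its 31-base words 65.0% are shared, as are 67.2% of those of Trav16 and 56.2% of those of Trav15-2-dv6-2.

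**Figure D3:**
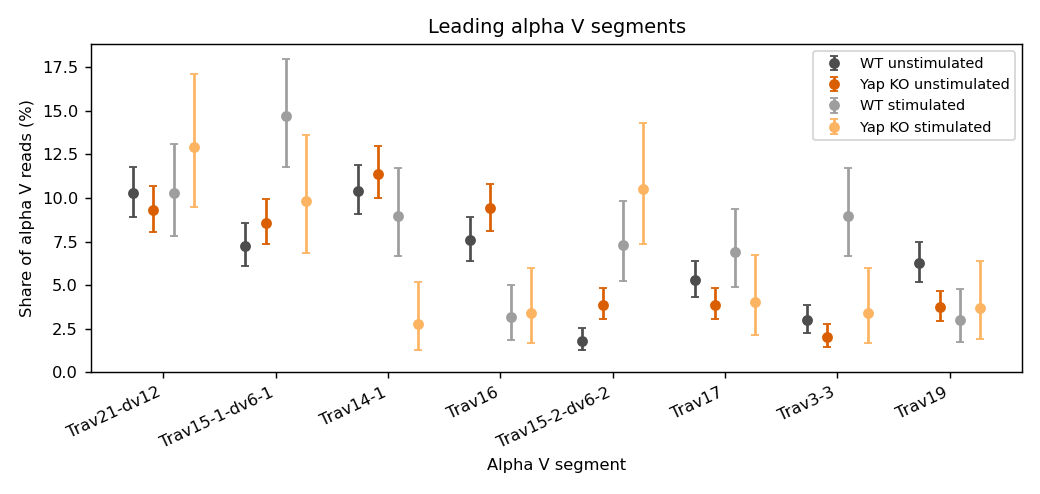
Share of alpha V reads (percent) of the 8 alpha segments with the highest mean share, with exact 95% binomial intervals, in each library. Trav15-2-dv6-2 is higher and Trav16 lower in both stimulated libraries, and Trav14-1 is low in Yap KO stimulated cells alone.

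Among alpha segments with at least 50 reads and genotype ratios of the same sign in both states, these were among the highest and lowest. Trav13-4-dv7 (57, 88, 10 and 13 reads) had share ratios, Yap KO over WT, of 1.49 unstimulated and 2.14 stimulated. Trav15-2-dv6-2 had ratios of 2.14 and 1.44, and Trav14d-1 of 1.32 and 1.27. Trav14d-3-dv8, without stimulated reads, had a ratio of 1.85 in unstimulated cells. Trav9-4 (33, 12, 10 and 3 reads) had ratios of 0.352 and 0.495, Trav4-4-dv10 (33, 22, 8 and 1) of 0.645 and 0.206, and Trav3-3 (54, 38, 48 and 11) of 0.681 and 0.378. None of these passed the edgeR test between genotypes, with adjusted p = 0.731, 0.293, 0.56 and 0.329. Trav3-3 stood at 8.96% in WT stimulated cells against 2.02 to 3.38% in the other 3 libraries.

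Set against each other over the whole alpha locus, the genotypes were 17.7 percentage points of share apart in unstimulated and 31.7 in stimulated cells. The states were 30.4 points apart in WT and 32.7 in Yap KO. The stimulated libraries hold 536 and 325 alpha V reads, and fewer reads give a larger distance by counting error alone, so these distances differ in precision.

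The segments known from invariant receptors were not detected. Trav11, Trav11d and Trav1 had 0 reads in every library, which allows a share of up to 0.165, 0.16, 0.56 and 0.923% of alpha V reads. Trav11 and Trav11d are shared with each other or another gene in 100% of their 31-base words, and it is not known how reads within them were assigned, whereas Trav1 has no shared word. Traj18, the J segment of the invariant NKT chain, had 51, 29, 29 and 18 reads. The 6 NKT and innate-like marker genes summed to 83.1, 69.6, 1.53 and 1.3 CPM, of which Cd1d1, the molecule that presents lipids to NKT cells and is found on other cells too, made up most with 1686, 1460, 28 and 26 reads. Klrb1c had 50, 75, 1 and 0 reads, and Zbtb16, the transcription factor of NKT cells, 4, 0, 0 and 0.

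Position in the locus and shared use gave further descriptions. Segments less than 800 kb from Trac, 38 of 110, held 89.2, 84.4, 88.6 and 88.9% of alpha V reads. The d copies of duplicated segments held 5.33, 8.19, 7.09 and 4.31% and the n copies 5.16, 7.02, 4.1 and 6.46%; most of these copies share their sequence, and how reads within shared parts were assigned is not known. The 10 segments that alpha and delta chains can both use held 28.0, 32.4, 40.1 and 42.8%, higher in both stimulated libraries than in both unstimulated ones. Whether such reads came from alpha or delta chains cannot be told from counts per gene.

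The 5 delta-only segments had 1046, 1127, 119 and 109 reads. Trdv2-2, printed above, led in unstimulated cells with 590, 657, 22 and 38 reads, or 56.4, 58.3, 18.5 and 34.9% of delta V reads. It fell by 4.08 on the log2 scale with stimulation (SE 0.28, edgeR adjusted p = 1.94e-06). Trdv2-2 shares 60.2% of its 31-base words with other genes, mainly Trdv2-1, and its exons also lie opposite those of Gm43647.

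Trdv1 led in stimulated cells, with 280, 250, 74 and 52 reads and a share of 26.8, 22.2, 62.2 and 47.7%. It fell by 1.79 (SE 0.25, adjusted p = 0.000192), and its share ratio between states was 2.32 (1.77 to 3.01) in WT and 2.15 (1.56 to 2.91) in Yap KO. Trdv1 has no shared 31-base word and no gene opposite. The 2 leading delta segments thus changed places between the states in both genotypes.

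Trdv5 had 88, 132, 14 and 15 reads, but its exons lie opposite those of the constant gene Trdc, and without strand information their reads cannot be told apart. Trdv2-1 had 63, 45, 4 and 0 reads and Trdv4 25, 43, 5 and 4. The delta distances were 6.62 and 18.4 points between genotypes and 40.6 and 27.6 points between states in WT and Yap KO. Trdc itself had 5318, 9112, 462 and 647 reads, so there were 19.7, 12.4, 25.8 and 16.8 delta V reads per 100 Trdc reads.

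Gamma segments were read mainly before stimulation. Trgv2 had 55, 169, 1 and 22 reads, Tcrg-V1 37, 57, 0 and 0, Tcrg-V4 23, 21, 0 and 0, and Tcrg-V5 8, 15, 0 and 0. Trgv2 was the only gamma segment with stimulated reads, and its share of gamma V reads in unstimulated cells was 41.0% (95% interval 32.6 to 49.9) in WT and 62.6% (56.5 to 68.4) in Yap KO. With a count of 0 taken as 3 reads per library, Tcrg-V1 was at least 11.7-fold lower with stimulation in WT and at least 14.9-fold lower in Yap KO, and Tcrg-V4, whose exons lie opposite Gm31887, at least 7.28-fold and 5.49-fold lower.

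Like the gamma V total (ratios, Yap KO over WT, of 1.75 unstimulated and 23.1 stimulated), Trgv2 was higher in the Yap KO library in both states. In stimulated cells Trgv2 had 1 read in WT and 22 in Yap KO. On the CPM scale it was the only V segment past the size rule between genotypes, 1 of 46 higher and 0 lower, at a background of 0.947% of the 16892 genes that met the read minimum higher and 0.935% lower. In the edgeR test it did not pass (log2 ratio 1.72, SE 0.39, adjusted p = 0.0828). By the same rule 29 of the 46 were lower and 0 higher with stimulation, at backgrounds of 20.7% and 16.7%. The minimum of 20 reads was summed over all libraries. Tcrg-V4, Tcrg-V5, Tcrg-V1 and Trav14d-3-dv8, all among the 29, had no stimulated read and met it on unstimulated reads alone. For these the rule could only give a fall. Others of the 29 met it mainly on unstimulated reads, such as Trav13-1 (57, 43, 2 and 4 reads), Trdv2-1 (63, 45, 4 and 0) and Trav23 (22, 18, 2 and 0). For such segments the rule favoured a fall, so the count is a description.

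**Figure D4:**
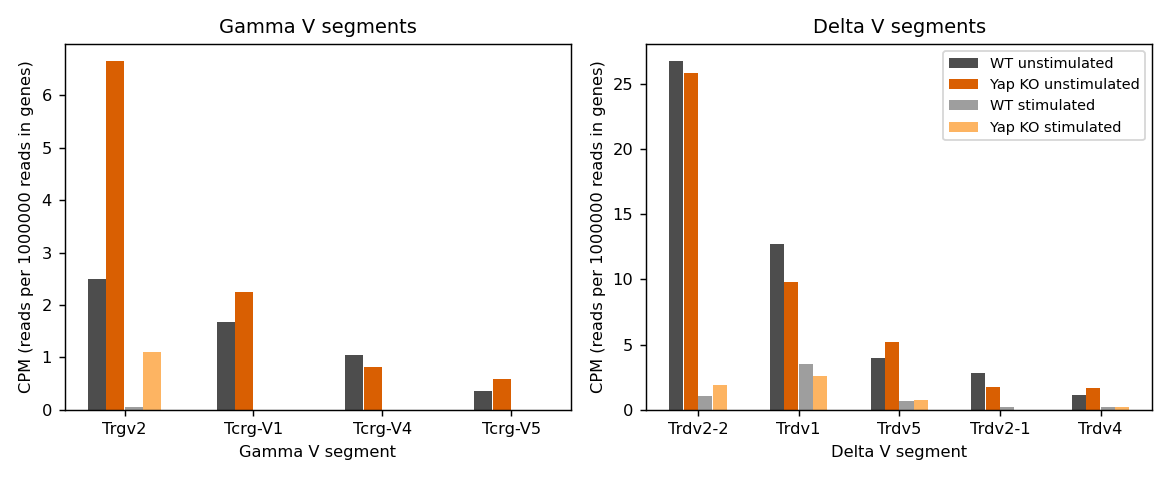
CPM of the gamma (left) and delta (right) V segments with at least 20 reads over all libraries, 1 bar per library. Trgv2 stands highest in Yap KO unstimulated cells, and Trdv2-2 and Trdv1 exchange first and second place between the states. The share intervals of Trdv2-2 and Trdv1 overlap in Yap KO stimulated cells.

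Values of other gamma-delta T cell transcripts stand beside these. Among gamma constant genes, Tcrg-C2 had 115, 389, 2 and 49 reads, Tcrg-C1 147, 440, 0 and 1, and Tcrg-C4 265, 439, 17 and 32, with genotype adjusted p (edgeR) of 0.0624, 0.0704 and 0.395. The list of gamma-delta and type 17 genes summed to 314.0, 571.9, 40.3 and 151.2 CPM, and 6 of its 10 tested genes were called higher in Yap KO and 0 lower (background 0.838% and 0.559%). The delta V total was not higher in Yap KO, with ratios of 0.935 and 0.965, whereas the delta constant gene Trdc was. Trdc stood at 240.8, 358.5, 22.0 and 32.5 CPM, with a log2 genotype ratio of 0.58 (SE 0.12) that edgeR did not call. Sox13, a transcription factor of gamma-delta cells, had 200, 676, 20 and 74 reads (log2 ratio 1.68, SE 0.25, adjusted p = 0.0138), and Cd163l1 996, 3484, 3 and 7. Il17a, the cytokine that names type 17 cells, had 0, 0, 44 and 310. The memory CD8 and NK cell lists also stood higher in Yap KO unstimulated cells. The 6 memory CD8 genes summed to 1323.4, 3005.0, 585.2 and 674.3 CPM, with 3 of 6 called higher. The 5 NK cell genes summed to 102.7, 256.5, 131.9 and 178.2 CPM, with 0 of 4 tested called by edgeR and 3 at an unadjusted p under 0.05. The NKT and innate-like list did not stand higher there (83.1, 69.6, 1.53 and 1.3 CPM). Nor did the B cell list (1254.6, 1201.2, 419.6 and 376.2 CPM), although 1 of its 7 genes was called higher. Of all 15394 tested genes, 1789 had an unadjusted genotype p under 0.05 in edgeR. DESeq2 calls of these lists were not counted. The part of any of these cells in the values of Trgv2 was not tested.

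The rest of the receptor's genes were tested in the same fit. Of 7 tested constant genes 6 fell and 0 rose with stimulation, against the background of 34.1% lower and 33.3% higher. Trac went from 11808 and 13591 to 5776 and 4930 reads (log2 ratio -0.95, SE 0.12, edgeR adjusted p = 0.000117) and Trbc2 had a log2 ratio of -1.02 (SE 0.13, adjusted p = 0.00012), while Trbc1, with -0.23 (SE 0.12, adjusted p = 0.121), was the member not called. All 4 signalling chains of the CD3 complex fell (Cd3e, Cd3d, Cd3g and Cd247), with a median log2 ratio of -1.79. Both tested coreceptor genes, Cd8a and Cd8b1, fell as well.

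Among J segments, of 70 entries 43 were tested, of which 12 fell and 2 rose, with a median log2 ratio of -0.63. The share that fell is near the background of 34.1%, and the share that rose is below its background of 33.3%. Traj39 had 6, 4, 48 and 49 reads (log2 ratio 3.54, SE 0.55, edgeR adjusted p = 0.000399) and Traj41 17, 4, 31 and 20 (1.56, SE 0.54, adjusted p = 0.0288). The most read was Trbj1-1, with 1620, 1294, 1045 and 574 reads. For each 100 constant reads of the beta locus there were 11.0, 9.15, 14.5 and 10.8 J reads, so the V ratio was lower in stimulated cells of both genotypes and the J ratio was higher. In the alpha locus J reads stood at 9.35, 7.08, 12.0 and 9.25 per 100 Trac reads.

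**Figure D5:**
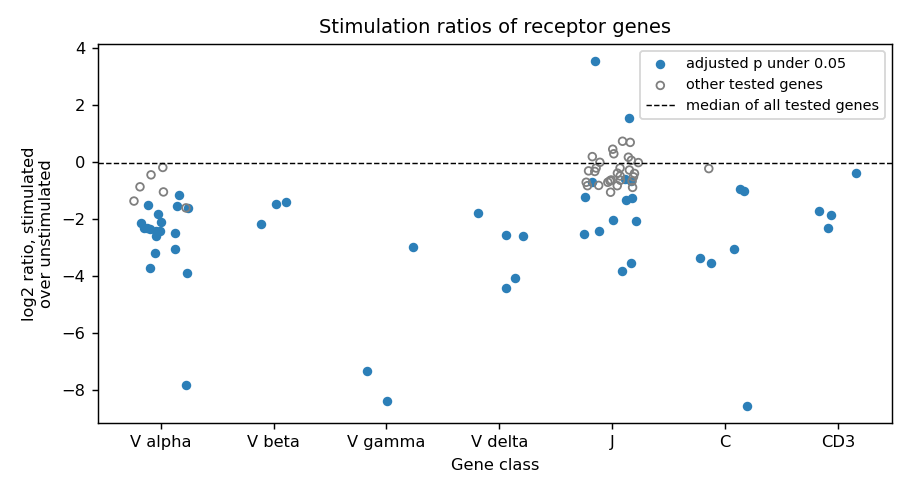
Log2 ratios of stimulated over unstimulated cells from the additive edgeR fit for the tested V segments of each locus and for J, C and CD3 genes, 1 point per gene, spread sideways to show them. Filled points passed an adjusted p of 0.05. All tested V segments lie below the dashed median of all tested genes, and fitted values beyond -7 belong to genes with 0 or 1 stimulated reads per library.

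Among the genes that make receptors, Rag1, Rag2 and Ptcra had 0 reads in every library. Dntt, the enzyme that adds bases at V(D)J junctions, had 378, 318, 4 and 3 reads. B cell transcripts fell in the same comparison: 31 of 32 tested immunoglobulin V genes and 5 of 7 other B cell markers were called lower with stimulation and 0 higher, against the background of 34.1% and 33.3%. The immunoglobulin V genes had 2087, 2553, 125 and 113 reads, so the limit that the filter sets for V segments applies to them as well. The part of changes in cell makeup in the fall of the V segments was not tested.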

How the data were processed

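Gene counts of 4 libraries, 1 per group, were used. The authors deposited raw read counts per Ensembl gene identifier, with 5 summary entries in the form that htseq-count writes, per the file contents; these entries (60.3 to 64.4% of all) were left out. Per the submitters' processing notes, the build is mm9. Identifiers in the tables are later than that build, so positions and sequences come from GENCODE M21 on GRCm38, looked up by identifier; 50462 of 50686 identifiers matched. For the aligner, annotation release and strand setting, nothing is given in the sources used here. Non-unique alignments (3.48 to 4.31% of entries) are listed in a summary entry apart from the gene counts.

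Shares are V reads over the V total of the locus. Intervals are exact (95%) and cover counting error only; whether reads are independent molecules is unknown. A count of 0 was taken as at most 3 reads per library. Genes passing filterByExpr by state (minimum count 10; 15394 genes) were fitted with edgeR 4.0.16 (TMM, quasi-likelihood, genotype plus state, Benjamini-Hochberg at 0.05). DESeq2 1.42.0, other size factors, no filter and leaving out genes opposite another gene were alternatives, as were other locus totals and read minimums. The scripts were tested on simulated data. RPKM uses exon bases.

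Named segments were the 8 with the highest mean share in alpha and beta, gamma and delta segments with at least 20 reads, the 5 highest and lowest share ratios with at least 50 reads and the same sign in both pairs, and listed marker segments. Members and lists were chosen with earlier results of these data known. Segments chosen after their values were seen are Trav2, Trav13n-3, Trav5-4, Traj18, Traj39, Traj41 and Trbj1-1.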

Additional observations from a re-analysis of the deposited data

Results flagged for a closer look

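Trav5-4 had 55, 29, 3 and 16 reads, and its share of alpha V reads changed in opposite directions in different pairs of libraries. Its ratio of shares, Yap KO over WT, was 0.51 in unstimulated and 8.8 in stimulated cells, and its ratio of stimulated over unstimulated was 0.185 in WT and 3.19 in Yap KO. Each of the 4 intervals left out 1, among 46 segments looked at; the difference between the ratios was not tested. Of its 31-base words 65.8% are shared, mainly with Trav5d-4.

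V pseudogenes, which the description does not otherwise use, had 166, 148, 74 and 30 reads, above the 3 reads that a count of 0 allows. The most read of the 34 was Trav8-2, with 100, 88, 36 and 18 reads.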

How the results depend on the processing

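No paired analysis was possible because every title carries the number 1, so a block by number has a single level; the genotype term already sets the states side by side within each source. The stimulation calls of V segments numbered 30 with DESeq2 size factors (the same 30), 30 of 113 with no filter (27 shared), 26 of 32 without genes opposite another gene and 20 with DESeq2; genotype calls were 0 in each of these. Segments past the size rule between states went from 4 to 0 without segments sharing at least 50% of their 31-base words and to 0 at 4-fold, and to 29 on the CPM scale; between genotypes the count went from 0 to 1 on the CPM scale. CPM of all V segments were 879.9, 839.9, 311.0 and 288.3 with TMM-scaled library sizes, 837.3, 789.7, 288.5 and 267.4 without widely shared segments and, chosen after seeing the data, 140.8, 139.7, 32.8 and 24.1 without Trbv12-1. The effective number of alpha segments became 6.01, 6.18, 5.31 and 5.35 without widely shared segments, 14.6, 13.6, 10.9 and 12.6 with only segments of at least 50 reads, 27.1, 28.1, 22.8 and 24.3 as the exponential of the Shannon entropy, 21.2, 20.5 and 17.3 (WT unstimulated, Yap KO unstimulated, WT stimulated) with V pseudogenes, and 15.5, 13.7, 13.2 and 20.3 with segments shared with delta moved to that locus, where Yap KO stimulated became the highest. The alpha distance between genotypes became 13.2 (unstimulated) and 23.8 (stimulated) without widely shared segments, and 40.4 (stimulated) with the shared segments moved. These changes follow from the segments or index used. The few stimulated reads of alpha, gamma and delta segments limit their shares.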
